A study of Homo sapiens with 14 samples.

Results

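Sialyltransferases are Golgi enzymes that cap glycan chains with sialic acid, which they take from the activated donor CMP-sialic acid. Enzymes named ST3GAL attach it to the 3-position of galactose, enzymes named ST6GAL to the 6-position of galactose, and enzymes named ST6GALNAC to the 6-position of N-acetylgalactosamine in O-glycans or glycolipids. Sialylated O-glycans and N-glycans are abundant on the surface of prostate epithelial cells and on the proteins these cells secrete, and some glycosyltransferase genes are known to respond to androgen. The genes described here were 10 sialyltransferases taken by symbol from a fixed list: ST6GALNAC1, ST6GALNAC2, ST6GALNAC4, ST6GALNAC6, ST6GAL1, ST3GAL1, ST3GAL2, ST3GAL3, ST3GAL4 and ST3GAL5. All 10 were found in both expression tables, among 44591 genes of the LNCaP table and 24199 features of the DU145 table. They were selected on the same LNCaP counts and DU145 values that are given below, so these values are given as a description and carry no p-value.

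RNA-seq was available for 8 samples of human prostate cancer cell lines. LNCaP is an androgen-responsive line, and it was represented by 1 parental library and 1 library of LNCaP-ENZ, a derivative kept continuously in 20 µM of the antiandrogen drug enzalutamide, for 30 days according to the series description. DU145 is an androgen-independent line, and it was represented by 3 libraries with a control hairpin (shCON) and 3 with a hairpin against the transcription factor PAX6 (shPAX6), all from puromycin-selected lentiviral lines. The study's methods give 2 PAX6 hairpins and 3 replicates per line, but the labels tie no library to a hairpin and do not say whether replicates were separate cultures, so p-values for DU145 measure only the spread between these libraries. The other 6 samples of the series, from chromatin accessibility assays, were not analysed here.

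Genes that mark the labelled lines and the knockdown were read first. In DU145, PAX6 measured 0.839, 1.23 and 1.57 FPKM in shCON and 0.0153, 0.274 and 0.0778 FPKM in shPAX6, with no overlap between the groups. In LNCaP, PAX6 had 11 counts in the parental library and 4 in LNCaP-ENZ. The paper reports raised PAX6 mRNA and protein in its enzalutamide-resistant LNCaP line. These counts do not show that rise, and they are too few to judge it. KLK3, the gene of prostate-specific antigen, had 1817 and 1186 counts in parental LNCaP and LNCaP-ENZ. In DU145, 4 of 7 luminal prostate markers (KLK2, TMPRSS2, FOLH1 and HOXB13) were listed at 0 in every library. Total counts were 20468001 in parental LNCaP and 17945722 in LNCaP-ENZ, and the depth of the DU145 libraries is unknown. Of the markers of other cell types, the 4 endothelial markers summed to 348 counts in parental LNCaP and 46 in LNCaP-ENZ. Among them VWF had 345 and 27, KDR had 0 and 16, PECAM1 had 3 and 3, and CDH5 was at 0 in both. The 5 fibroblast markers summed to 456 and 231 (all COL1A1, the other 4 at 0), and the 5 leukocyte markers to 56 and 70. In DU145 the same sums were 0.0474 to 0.127, 0.347 to 0.773 and 0.436 to 0.922 FPKM per library. The part of these markers in the results was not tested.

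Promoter sequence was taken from RefSeq for the members whose entries matched by symbol, 6 of 10: ST6GALNAC4, ST6GALNAC6, ST6GAL1, ST3GAL3, ST3GAL4 and ST3GAL5. The window was the 250 bases before the annotated start, on build GRCh38.p14, a different build from the expression tables. GC content of the 6 windows ran from 59.6% in ST6GALNAC6 to 82.8% in ST3GAL4, against a median of 58% over 27305 promoters, and the number of CG dinucleotides ran from 2 in ST6GALNAC6 to 42 in ST3GAL4, against a median of 11. ST3GAL4 and ST6GALNAC6 had the highest and the lowest GC content. ST6GAL1 had one of the larger differences in LNCaP, but that of ST3GAL5, whose window is not shown, was larger. The windows of ST3GAL4, ST6GAL1 and ST6GALNAC6 are given below. They are written 5′ to 3′ on the gene's own strand, and capitals mark matches to the GC box GGGCGG on either strand. ST3GAL4 lies at chr11:126355762-126356011 on the plus strand, ST6GAL1 at chr3:186930276-186930525 on the plus strand and ST6GALNAC6 at chr9:127905325-127905574 on the minus strand.
ST3GAL4: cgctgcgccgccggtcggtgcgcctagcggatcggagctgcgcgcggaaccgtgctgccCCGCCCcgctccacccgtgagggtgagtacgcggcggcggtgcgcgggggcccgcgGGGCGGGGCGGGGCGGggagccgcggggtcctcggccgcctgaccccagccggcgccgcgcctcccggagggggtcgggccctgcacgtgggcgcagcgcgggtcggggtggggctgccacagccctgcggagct
ST6GAL1: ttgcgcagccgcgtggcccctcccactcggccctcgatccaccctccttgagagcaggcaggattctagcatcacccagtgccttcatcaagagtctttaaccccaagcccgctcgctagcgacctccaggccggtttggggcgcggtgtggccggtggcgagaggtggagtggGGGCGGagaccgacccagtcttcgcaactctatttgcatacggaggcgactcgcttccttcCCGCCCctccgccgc
ST6GALNAC6: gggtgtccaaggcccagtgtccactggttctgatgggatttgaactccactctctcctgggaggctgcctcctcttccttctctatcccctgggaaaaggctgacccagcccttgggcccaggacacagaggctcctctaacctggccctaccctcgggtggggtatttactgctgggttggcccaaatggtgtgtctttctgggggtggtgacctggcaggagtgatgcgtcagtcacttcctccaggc

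A GC box was found in 5 of the 6 windows and not in that of ST6GALNAC6, and 42.3% of all promoters held one. Other letters searched, on both strands, included the STAT5 motif TTCNNNGAA (6.78% of all promoters) and the TATA box TATAAA (11.1%). Neither of these occurred in the 6 windows.

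The first comparison set LNCaP-ENZ against parental LNCaP, which asks how expression differs in cells kept under enzalutamide. ST6GALNAC1, which makes the sialyl-Tn antigen on O-glycans, had 729 counts in the parental library and 11 in LNCaP-ENZ, and ST3GAL1, which caps core 1 O-glycans with sialic acid, had 10740 and 13216. The first was the member with the lowest ratio and the second the member with the highest. Because each arm was 1 library, there is no replicate check and no test, and the intervals printed with the ratios are exact Clopper-Pearson 95% intervals that cover counting error only. Levels are given as counts, as counts scaled to a common library total (CPM) or, where genes are compared with each other, as the length-scaled TPM the authors deposited.

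ST6GALNAC1 lies on GRCh37 at chr17:74620838-74639920. Its level was 35.6 CPM in parental LNCaP and 0.613 CPM in LNCaP-ENZ, 58.1-fold lower, and the log2 ratio of CPM + 0.1 was -5.65 (-6.87 to -5.01). That was the 3rd lowest log2 ratio among 14767 genes with a mean of at least 1 CPM. Here and below, the interval and the fold are for CPM without the added 0.1, which matters for genes with few counts. The remaining 11 counts stood above the floor of 3 counts, which is 0.167 CPM in that library. In TPM it ranked 4th of the 10 members in the parental library (13.7 TPM) and last in LNCaP-ENZ (0.222 TPM).

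**Figure D1:**
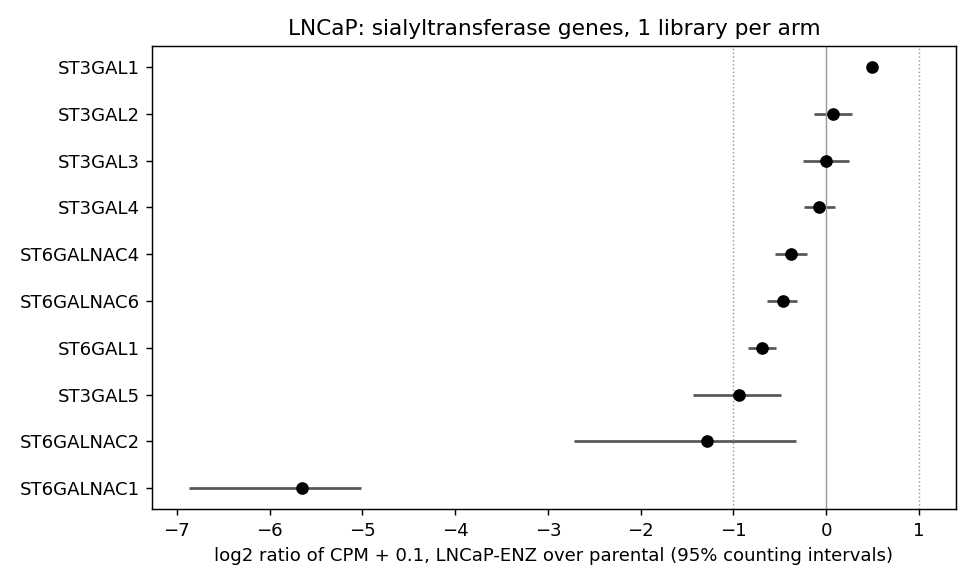
Log2 ratio of LNCaP-ENZ to parental LNCaP (CPM + 0.1) for each member, with exact 95% counting intervals (for CPM without the added 0.1), 1 library per arm, and dotted lines at 2-fold. ST6GALNAC1 stands apart at -5.65, and ST3GAL1 is the member whose interval lies wholly above 0.

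ST6GALNAC2, at chr17:74561461-74582145, sialylates core 1 O-glycans, and it had 28 and 9 counts in the parental and LNCaP-ENZ libraries. Its log2 ratio was -1.29 (-2.72 to -0.32), and at a mean of 0.935 CPM it fell outside the genes counted above. ST6GALNAC4, at chr9:130670165-130679305, adds a second sialic acid to core 1 O-glycans that already carry one, and had 679 and 458 counts, a log2 ratio of -0.38 (-0.55 to -0.21). ST6GALNAC6, at chr9:130647600-130667627, sialylates gangliosides and related chains. It had 807 and 510 counts, a log2 ratio of -0.47 (-0.64 to -0.31). All 4 ST6GALNAC members were therefore lower in LNCaP-ENZ by more than counting error.

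ST6GAL1, at chr3:186648315-186796341, is the main enzyme that caps N-glycans through the 6-position of galactose. It had 1054 and 573 counts, a log2 ratio of -0.69 (-0.84 to -0.54). ST3GAL5, at chr2:86066271-86116157, makes the ganglioside GM3, from which most gangliosides are built. It had 124 and 56 counts, a log2 ratio of -0.94 (-1.44 to -0.49). Both were lower in LNCaP-ENZ by more than counting error.

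ST3GAL1 lies at chr8:134467091-134584183. It measured 525 CPM in parental LNCaP and 736 CPM in LNCaP-ENZ, 1.40-fold higher, with a log2 ratio of 0.49 (0.45 to 0.53). ST3GAL2, at chr16:70413338-70472991, also acts on core 1 chains and on gangliosides, and had 398 and 367 counts. ST3GAL3, at chr1:44173204-44396837, and ST3GAL4, at chr11:126225540-126284536, both act on galactose at the ends of N-glycans and of chains that become sialyl Lewis antigens. ST3GAL3 had 281 and 246 counts and ST3GAL4 had 632 and 526. The intervals of the last 3 crossed 0, at log2 ratios of 0.07 (-0.14 to 0.28) for ST3GAL2, -0.0022 (-0.25 to 0.25) for ST3GAL3 and -0.07 (-0.24 to 0.09) for ST3GAL4.

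Of the 9 members with a mean of at least 1 CPM, 1 was at least 2-fold lower, against 9.57% of all such genes, and 0 were at least 2-fold higher, against 1.84%. A share of 1 in 9 is close to that background. A lower value of any size was seen in 7 of the 9, against 62.3% of all genes, and in 5 of the 9 after TMM scaling. The median log2 ratio was -0.38 for the 9 members and -0.15 for all genes, so the whole comparison was shifted towards lower values. With TMM scaling the median of all genes was -0.01, ST3GAL3 moved to 0.14 and ST3GAL4 to 0.07, so no direction is given for these members. Exons of 4 members overlap other annotated genes (ST6GALNAC2, ST6GALNAC6, ST3GAL2 and ST3GAL3), so part of their reads may belong to those genes. For ST6GALNAC2, ST6GALNAC6 and ST3GAL3 an overlapping gene lies on the same strand, so this holds for any strand setting. For ST3GAL2 the overlap is on the other strand, and the strand setting of the counting is not given in the sources used here. The same limit applies to these members in DU145.

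Set on the length-scaled TPM, ST3GAL1 was the leading member in both LNCaP libraries. It had 78.6 TPM in the parental library and 104 TPM in LNCaP-ENZ, 3.84 and 7.0 times the next member, ST6GALNAC4 (20.5 and 14.8 TPM). In the parental library ST6GALNAC6 (14.9 TPM), ST6GALNAC1 (13.7), ST3GAL4 (12.3) and ST6GAL1 (11.4) followed, and ST3GAL3 (4.98), ST3GAL2 (4.56), ST3GAL5 (2.58) and ST6GALNAC2 (0.678) were lower. In LNCaP-ENZ the same middle group read 10.98 TPM for ST3GAL4, 10.1 for ST6GALNAC6 and 6.64 for ST6GAL1, and the lower group read 4.69 for ST3GAL3, 4.52 for ST3GAL2, 1.25 for ST3GAL5 and 0.234 for ST6GALNAC2. With 1 library per arm, neighbours in this order cannot be separated beyond counting error.

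The summed level of the 10 members was nearly the same, 164 TPM in parental LNCaP and 157 TPM in LNCaP-ENZ. Its makeup differed. ST3GAL1 made up 47.9% of the sum in the parental library and 66.0% in LNCaP-ENZ, and ST6GALNAC1 made up 8.35% and 0.141%. By family, the 5 ST3GAL genes made up 62.8% and 79.6%, the 4 ST6GALNAC genes 30.3% and 16.1%, and ST6GAL1 6.92% and 4.22%. These are shares of transcript levels and do not measure enzyme activity or sialic acid.

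**Figure D2:**
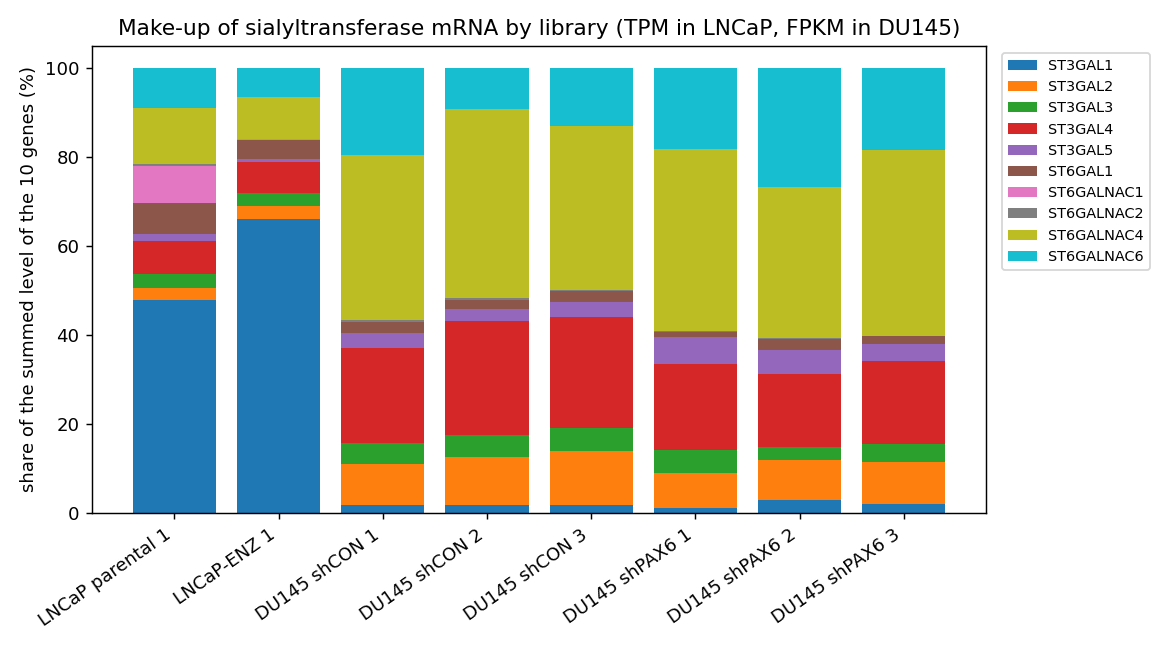
Share of the summed level of the 10 members (percent, from TPM in LNCaP and FPKM in DU145) in each of the 8 libraries, coloured by gene. ST3GAL1 fills 47.9% and 66.0% of the LNCaP bars, and ST6GALNAC4 is the largest share in all 6 DU145 bars.

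In DU145 the order was another one. In shCON, ST6GALNAC4 led at 34.96 ± 1.18 FPKM (SD, n = 3), followed by ST3GAL4 at 21.7 ± 2.44, and then by ST6GALNAC6 at 12.7 ± 5.10 and ST3GAL2 at 9.71 ± 1.82, whose ranges overlapped. ST3GAL3 was at 4.46 ± 0.37 FPKM. ST3GAL5 (2.88 ± 0.50) and ST6GAL1 (2.14 ± 0.30) overlapped each other, and ST3GAL1 came next at 1.61 ± 0.17. ST6GALNAC2 (0.323 ± 0.095) was low and ST6GALNAC1 was listed at 0 in all 6 libraries, whereas 6 housekeeping genes had no value at 0. ST3GAL1 was thus first of 10 in both LNCaP libraries and eighth in shCON. The LNCaP and DU145 tables were normalized separately, so only positions within each line are compared.

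**Figure D3:**
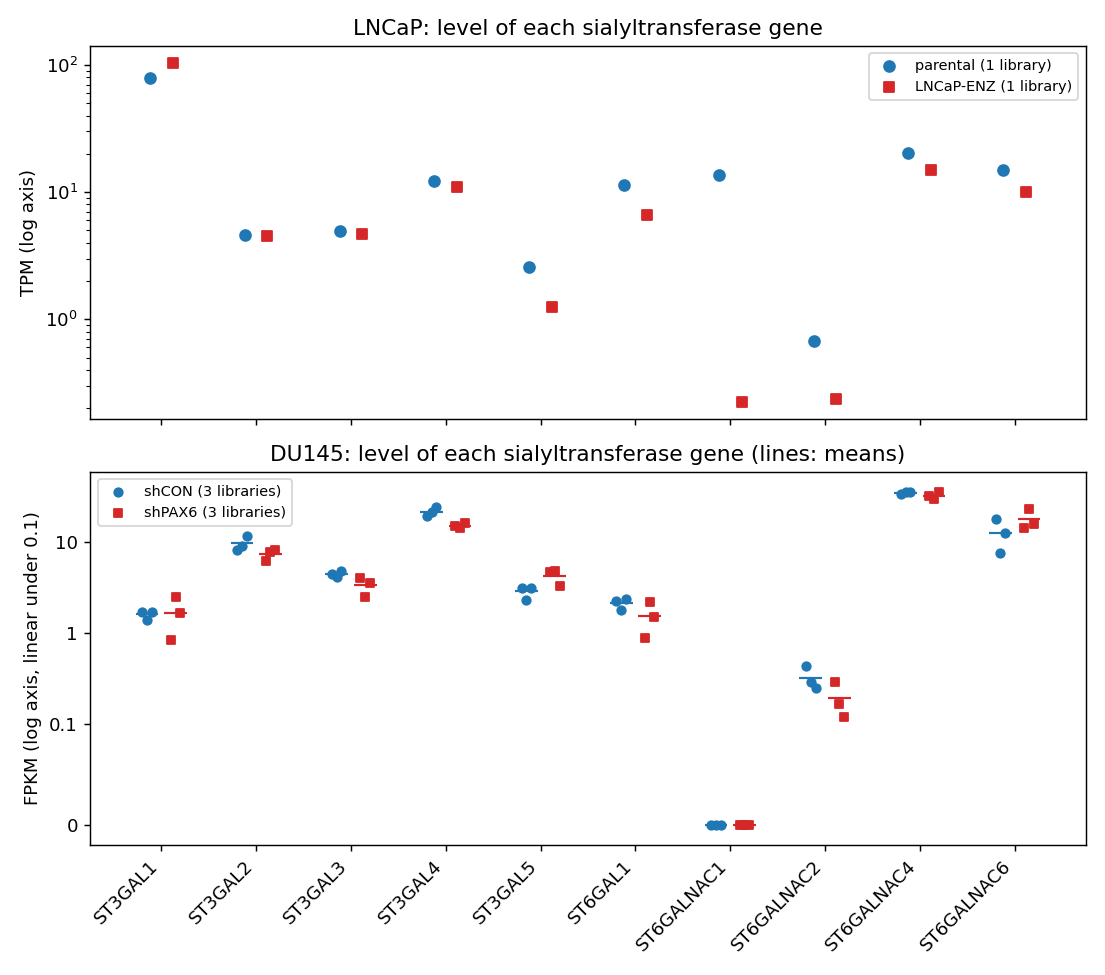
Level of each member in each library, on log axes (linear under 0.1 FPKM in DU145), with LNCaP in TPM (1 library per arm) and DU145 in FPKM (3 libraries per group, horizontal bars at the means). ST3GAL1 stands highest in LNCaP, and ST6GALNAC4 and ST3GAL4 stand highest in DU145 shCON.

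The second comparison set DU145 shPAX6 against shCON, which asks how expression differs when PAX6 is lowered. No member passed the threshold of the test across all features. ST3GAL4 was lower in all 3 shPAX6 libraries, ST3GAL3 was lower in all 3, and ST3GAL5 was higher in all 3, while the other 5 members that could be tested had overlapping groups. Groups also did not overlap for 26.7% of all features tested, so these 3 of 8 are not read as a result about the members. The test was limma on log2(FPKM + 0.1) over the 13574 features that averaged 0.5 FPKM or more, and p-values were adjusted by Benjamini-Hochberg. Of the 10 members 8 entered it. ST3GAL1 was the lowest of those inside the filter (mean of all 6 libraries 1.64 FPKM), ST6GALNAC2 was outside (0.258 FPKM), and ST6GALNAC1 was listed at 0.

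ST3GAL4 measured 19.4, 21.4 and 24.2 FPKM in shCON and 15.1, 14.4 and 16.2 in shPAX6. Every shPAX6 library was below every shCON library, and the fitted log2 fold change was -0.50 (SE 0.14). ST3GAL3 measured 4.44, 4.10 and 4.84 FPKM in shCON and 4.02, 2.52 and 3.52 in shPAX6. The highest shPAX6 library lay just under the lowest shCON library, and the log2 fold change was -0.42 (SE 0.22).

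ST3GAL5 measured 3.17, 2.30 and 3.17 FPKM in shCON and 4.75, 4.79 and 3.26 in shPAX6. Its shPAX6 replicate 3 stood close to the shCON libraries, and the log2 fold change was 0.54 (SE 0.24). ST3GAL2 measured 8.21, 9.17 and 11.7 FPKM in shCON and 6.26, 7.90 and 8.22 in shPAX6, groups that met at a single point, with a log2 fold change of -0.37 (SE 0.20).

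ST6GALNAC6 measured 17.8, 7.63 and 12.5 FPKM in shCON and 14.2, 23.5 and 15.9 in shPAX6. The highest shCON library lay above 2 of the shPAX6 libraries, so the log2 fold change of 0.54 (SE 0.33) went with overlapping groups, and it was 0.22 without shCON replicate 2, 0.33 without shPAX6 replicate 2 and 0.83 without shCON replicate 1. ST6GAL1 measured 2.23, 1.80 and 2.39 FPKM in shCON and 0.880, 2.22 and 1.49 in shPAX6, with a log2 fold change of -0.54 (SE 0.34) that was -0.21 without shPAX6 replicate 1 and -0.83 without shPAX6 replicate 2. ST3GAL1 measured 1.70, 1.41 and 1.72 FPKM in shCON and 0.837, 2.49 and 1.65 in shPAX6, with a log2 fold change of -0.07 (SE 0.38). For ST6GAL1 and ST3GAL1 the shPAX6 libraries lay farther apart than the shCON libraries, and shPAX6 replicate 2 was the highest in each case.

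ST6GALNAC4, the leading member, measured 33.6, 35.7 and 35.6 FPKM in shCON and 32.0, 29.7 and 36.1 in shPAX6. The groups overlapped, with a log2 fold change of -0.10 (SE 0.13). ST6GALNAC2 was not tested and measured 0.430, 0.289 and 0.250 FPKM in shCON and 0.288, 0.167 and 0.120 in shPAX6.

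**Figure D4:**
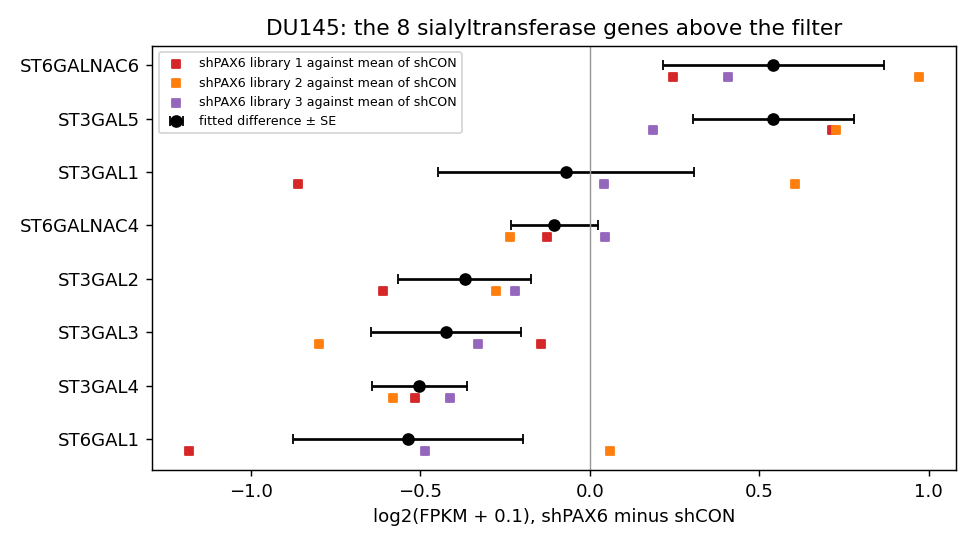
Fitted log2 fold change of shPAX6 against shCON in DU145 for the 8 tested members, with the limma standard error as bars (3 libraries per group) and, as coloured squares, each shPAX6 library against the shCON mean. ST3GAL5 and ST6GALNAC6 stand at 0.54, and ST3GAL4 at -0.50 has one of the 2 smallest standard errors, 0.14.

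By limma with adjustment over all features, 0 of 8 members were called, against 1.2% of all features tested (163 of 13574). At an unadjusted p under 0.05 the count was 1 of 8, against 18.3% of all features. Groups did not overlap for 3 of 8 members, 1 higher and 2 lower, against 26.7% of all features. The median log2 fold change was -0.24 for the members (2 higher, 6 lower) and -0.12 for all features (5032 higher, 8542 lower). With 8 members, none of these counts is read as a result about them. Of all calls 85.3% were lower in shPAX6, a split that was 68.6% after quantile normalization, 72% after median centring and 71.0% after GC correction. With median centring ST6GALNAC4 moved to 0.07 and ST3GAL1 to 0.10, so no direction is given for these members.

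The 3 shPAX6 libraries differed more among themselves than the 3 shCON libraries. Over all features the median SD of log2 values was 0.141 in shCON and 0.360 in shPAX6. Among the 8 tested members it was larger in shPAX6 for 5, most of all for ST3GAL1 (0.152 and 0.741) and ST6GAL1 (0.201 and 0.624). The first and second shPAX6 libraries deviated from the group mean with transcript length in opposite directions, at Spearman's rho of -0.59 and 0.63 across 12009 features, which are not independent replicates, and shCON replicate 2 did so at -0.48. Deviations from a group's own mean cancel out over its 3 libraries. With shPAX6 replicate 3 at -0.04, the opposite signs of the first and second are therefore largely fixed by the calculation. The second over the first library was 2.98 for ST3GAL1 (6971 bases) and 2.52 for ST6GAL1 (4732 bases), and 0.626 for ST3GAL3 (2875 bases) and 0.927 for ST6GALNAC4 (1691 bases). The ratio did not follow length in every member: it was 1.66 for ST6GALNAC6 (2768 bases) and 1.26 for ST3GAL2 (4450 bases). The part of length in the members' differences was not tested. Deviations also went with GC content, most in shCON replicate 1 (rho -0.60), shPAX6 replicate 2 (-0.46) and shPAX6 replicate 1 (0.43). The opposite signs of these shPAX6 libraries are again largely fixed by the calculation, with replicate 3 at 0.06. The log2 fold change itself went with GC content at rho -0.36 over the 12009 features. With GC correction per library the median of the 8 members was -0.13, with 3 higher and 5 lower.

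The makeup of the members' sum in DU145 was also set out by family, with no test. The ST3GAL share was 40.5% to 47.4% in shCON (44.6 ± 3.59, SD, n = 3) and 36.6% to 39.5% in shPAX6 (38.0 ± 1.45). These ranges did not overlap, as was the case for the FPKM of 26.7% of all features. The ST6GALNAC share was 50.1% to 57.0% in shCON and 59.4% to 60.9% in shPAX6, which is largely the complement of the same sum and is not a separate observation. ST6GALNAC4 held 38.8% ± 3.29 in shCON and 38.8% ± 4.34 in shPAX6. ST3GAL4 held 24.0% ± 2.35 and 18.1% ± 1.499, and ST6GALNAC6, whose FPKM overlapped between the groups, held 13.9% ± 5.31 and 21.1% ± 4.95. ST3GAL1 held 1.78% and 1.94%.

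Genes that surround the members in the pathway were taken from 7 lists, covering the other sialyltransferases, sialic acid supply, sialidases with their lysosomal partners, O-glycan initiation and cores, N-glycan branching and galactosylation, glycolipid synthesis, and Lewis fucosyltransferases. In DU145 48 of 78 listed genes were tested, 16 higher and 32 lower in shPAX6, with a median log2 fold change of -0.18, and median centring made this 24 and 24. Without shPAX6 replicate 1 it was 26 higher and 22 lower, with a median of 0.039, so no direction is given for these genes as a whole. By limma 0 were called, and 9 of 48 were under an unadjusted p of 0.05, all lower, a share close to the 18.3% of all features, of which 1917 of 2480 were lower. The largest lists gave a median of -0.14 for 15 O-glycan genes (0.038 with median centring), -0.30 for 12 N-glycan genes and -0.29 for 8 glycolipid genes, and without shPAX6 replicate 1 these were 0.033, -0.095 and 0.0046. The 7 genes of sialic acid supply had a median of 0.18, with 4 higher and 3 lower, and without shPAX6 replicate 1 all 7 were higher, with a median of 0.13.

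The 3 pathway genes nearest to the threshold were named after their values were seen. NEU1, the lysosomal sialidase that removes sialic acid, measured 30.7, 30.1 and 32.0 FPKM in shCON and 20.9, 16.5 and 17.0 in shPAX6. Its groups lay well apart, with a log2 fold change of -0.78 (SE 0.14) and an adjusted p of 0.054 by limma, and the adjusted p ran from 0.0067 to 0.33 over 16 alternatives. B3GNT3, which extends core 1 O-glycans, measured 1.98, 2.35 and 2.50 FPKM in shCON and 1.02, 1.07 and 1.06 in shPAX6 (log2 fold change -1.04, limma adjusted p 0.070). MGAT4B, which adds a branch to N-glycans, measured 129, 139 and 137 FPKM in shCON and 95.1, 70.3 and 85.7 in shPAX6 (log2 fold change -0.70, limma adjusted p 0.070). All 3 genes failed the correction. They were lower in 3 of 3 shPAX6 libraries, which the way they were picked makes likely. Among the 48 tested pathway genes, groups did not overlap for 1 higher and 12 lower, close to the 26.7% of all features. ST3GAL6, the only other sialyltransferase above the filter, measured 0.488, 0.770 and 0.869 FPKM in shCON and 0.320, 0.533 and 0.272 in shPAX6.

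In LNCaP 48 of 77 listed pathway genes had a mean of at least 1 CPM, 19 higher and 29 lower in LNCaP-ENZ, with a median log2 ratio of -0.14, close to that of all genes, and TMM scaling made the counts 24 and 24. None was at least 2-fold higher and 5 were at least 2-fold lower (3 after TMM scaling), and 5 of 48 is close to the 9.57% of all genes. GALNT7, which starts or extends O-glycans, had 554 and 131 counts in the parental and LNCaP-ENZ libraries, a log2 ratio of -1.88 (-2.18 to -1.61). GCNT1, which builds core 2 O-glycans, had 490 and 154 counts, a ratio of -1.47 (-1.75 to -1.22). FUT4, a fucosyltransferase of Lewis antigens, had 114 and 38, MGAT4A, which adds the same N-glycan branch as MGAT4B, had 199 and 83, and B3GALT4, a ganglioside galactosyltransferase, had 55 and 22. The counting intervals printed for GALNT7 and GCNT1 stayed below 0.

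All 7 genes of sialic acid supply with a mean of at least 1 CPM had log2 ratios below 0 in LNCaP-ENZ, with a median log2 ratio of -0.16, near the shift of all genes, and with TMM scaling 3 were higher and 4 lower. The lowest was CMAS, which makes the donor CMP-sialic acid, with 533 and 250 counts, which is a log2 ratio of -0.90 (-1.13 to -0.68), and NANP, which acts earlier in the same route, had 317 and 249. The 4 genes of the sialidase list at that level had log2 ratios above 0, with a median of 0.21 (3 of 4 above 0 on the deposited TPM). Of all genes 5571 of 14767 were above 0, and 4 genes are too few to be read as a result about the list. The intervals of NEU1 (0.11, -0.02 to 0.24) and NEU3 (0.06, -0.15 to 0.26) crossed 0. The highest were CTSA, the lysosomal partner of NEU1, with 817 and 956 counts, and GLB1, a lysosomal galactosidase, with 935 and 1013. The O-glycan list had a median of -0.42 over 12 genes, and GALNT10 and GALNT2, enzymes that start O-glycans, were its highest at 855 and 1064 and at 1552 and 1731 counts. In the N-glycan list MAN2A2, a mannose-trimming enzyme, had 788 and 1048 counts, B4GALT2, a galactosyltransferase, 2635 and 2933, and FUT8, the core fucosyltransferase, 325 and 161. In the glycolipid list UGCG, which makes the glucosylceramide that starts gangliosides, had 516 and 310, and B4GALT6 156 and 115, while B4GALNT1 had 360 and 387 and B4GALT5 1992 and 2090. FUT1 had 246 and 245. Of the other sialyltransferases, ST8SIA4 had 41 and 46 counts, ST8SIA5 30 and 25, and ST3GAL6 11 and 1, and the other genes of that list had at most 5 counts in either library.

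**Figure D5:**
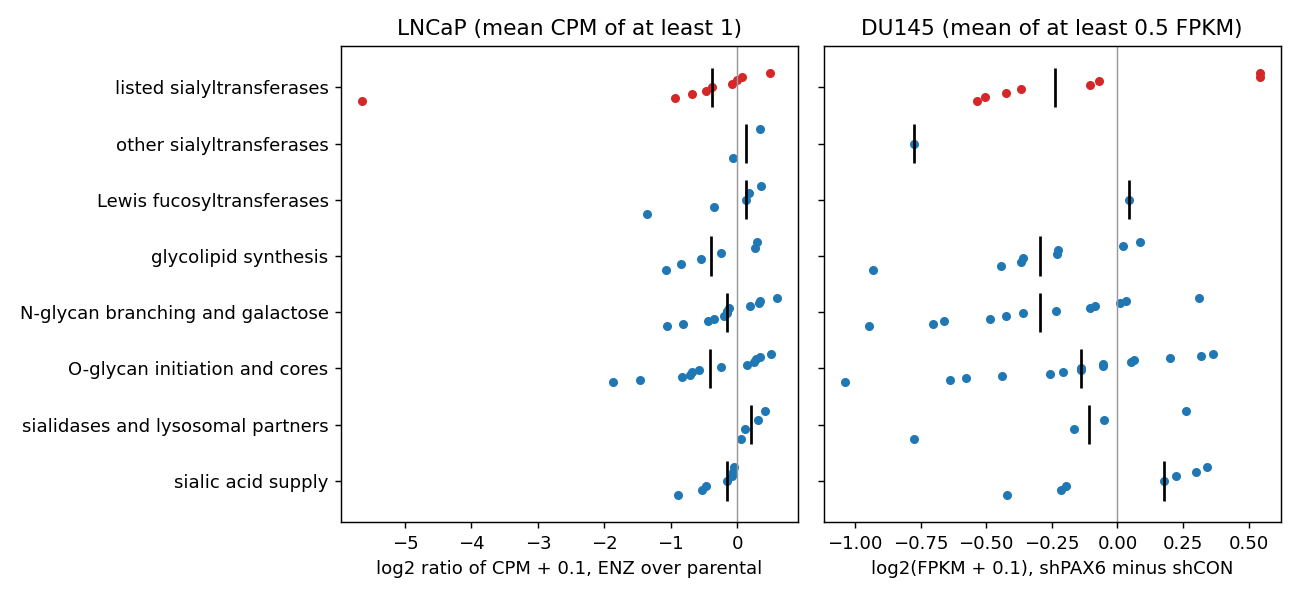
Log2 differences of the pathway lists and the members in LNCaP (log2 ratio, 1 library per arm) and DU145 (limma log2 fold change, 3 libraries per group), each point a gene and each bar a list's median. GALNT7 at -1.88 and ST6GALNAC1 at -5.65 are far to the left in LNCaP, and the sialidase list has a median of 0.21 in LNCaP and -0.11 in DU145 (0.066 with median centring). The medians of all genes in LNCaP and all features in DU145 are -0.15 and -0.12.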

How the data were processed

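RNA-seq values were used as deposited. According to the study's methods, the authors mapped the reads to GRCh37/hg19 by HISAT2 and took abundances from StringTie; versions are not given in the sources used here. For LNCaP the authors deposited raw counts and TPM per gene, with positions. For DU145 the deposited table has no unit in its header, and its values were read as FPKM. The labels and the methods describe the library kit differently. LNCaP counts were scaled to CPM, and log2 ratios used a pseudocount of 0.1 CPM, while their counting intervals used none. DU145 was fitted with limma 3.58.1 (trended eBayes, R 4.3.3) on log2(FPKM + 0.1), two-sided, with no covariate, at an adjusted p of 0.05. The code was tested on simulated data with equal spread in both groups, no library trends and larger changes than those of the members. That run therefore does not cover the unequal spread of these libraries. Alternatives were other pseudocounts, filters, scalings (TMM by edgeR 4.0.16), a GC correction by loess, the replicate block and leaving out each library. The members and lists were chosen with earlier results of these data known. Named genes were every member, PAX6 and KLK3 (1 further gene of the rule is not reported here), the pathway genes past the DU145 threshold, up to 2 per direction and list in LNCaP at a mean of at least 5 CPM, and the 3 features most like the member with the largest DU145 difference. The pathway genes past 2-fold in LNCaP and those nearest the DU145 threshold were added. Of 10 members 6 had a RefSeq promoter. Figures used matplotlib 3.10.9.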

Additional observations from a re-analysis of the deposited data

How the results depend on the processing

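None of the 8 tested DU145 members was called under any of the 16 alternatives, but the calls over all features were unstable. Against 163, there were 236 with a pseudocount of 1 or quantile normalization, 100 with median centring, and 0, 5 and 0 without shCON replicate 1, 2 and 3, and 920, 903 and 10 without shPAX6 replicate 1, 2 and 3; why was not tested. The replicate numbers did not pair the libraries (correlations of deviations -0.17, -0.37 and 0.052, with 1 of 6 libraries correlating best with its own number), and a fit with the replicate number as a block called 0 features (1568 at an unadjusted p under 0.05), also with GC correction. Against 0 in the pathway lists, 1 gene was called with a pseudocount of 1 (NEU1), 1 with quantile normalization (MGAT4B) and 1 with eBayes without trend (B3GNT3), and leaving out a library gave 0 to 5, with 3 without shPAX6 replicate 1 and 5 without shPAX6 replicate 2. ST6GALNAC4 turned to 0.071 with median centring and 0.12 with GC correction, with or without the replicate block. ST3GAL1 turned to 0.13 with quantile normalization, 0.10 with median centring and lay between -0.41 (without shPAX6 replicate 2) and 0.32 (without shPAX6 replicate 1). The other 6 tested members kept their direction under all 16, but leaving out 1 library moved some widely, from 0.22 to 0.83 for ST6GALNAC6, -0.83 to -0.21 for ST6GAL1, -0.56 to -0.24 for ST3GAL3 (-0.24 without shPAX6 replicate 2) and -0.48 to -0.23 for ST3GAL2 (-0.23 without shCON replicate 3), against -0.58 to -0.42 for ST3GAL4 and 0.39 to 0.72 for ST3GAL5. In LNCaP the 1 member past 2-fold stayed past it in all settings, with a second (ST6GALNAC2) when genes with any count entered, a count of 2. Against 5 pathway genes past 2-fold there were 3 with a pseudocount of 1, TMM or a median ratio set to 0, and 12 with any count. ST6GALNAC1 was at -4.50 with a pseudocount of 1. ST3GAL2 turned to -0.013 with deposited TPM, ST3GAL3 to 0.14 with TMM and 0.15 with the median set to 0, and ST3GAL4 to 0.071 and 0.079. Counting error alone left ST3GAL2, ST3GAL3 and ST3GAL4 undecided in LNCaP, and 3 libraries per group with unequal spread limit DU145.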

Other observations

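The features whose pattern over the 6 DU145 libraries was most like that of ST6GALNAC6, the member with the largest fitted log2 fold change by a small margin over ST3GAL5 (an order that depends on single libraries, since ST6GALNAC6 ran from 0.22 to 0.83 when 1 was left out), were KMT5B, a histone methyltransferase gene (Pearson's r 0.985), an unnamed assembled transcript (0.980) and HELQ, a DNA helicase gene (0.978), on log2(FPKM + 0.1). KMT5B measured 4.69, 3.58 and 4.15 FPKM in shCON and 4.35, 5.00 and 4.28 in shPAX6, so its range was narrower than that of ST6GALNAC6. These are descriptions over 6 libraries, in which features share each library's depth and its trend with base composition, chosen as the highest of all features tested.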
